A study of Mus musculus with 10 samples.

Results

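The transcription factors that give DRG neurons their sensory and nociceptive identity were followed across control and *WD1* cKO ganglia at E18.5. They are the Brn3 factors *Pou4f1*, *Pou4f2* and *Pou4f3*, the Islet factors *Isl1* and *Isl2*, and *Prdm12*, *Tlx3* and *Drgx*. They were chosen by gene name, and all 8 were found among the 55414 genes listed for each library. *Drgx* was found through its older name, *Prrxl1*. All 8 also passed the filter on low counts, which kept 17490 genes. Of the 8 genes, 7 were lower in *WD1* cKO than in control DRG and 1, *Pou4f3*, was higher, but none passed the test across all genes.

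Newly born sensory neurons of every subtype switch on *Isl1* and *Pou4f1*, which together close the preceding neurogenic program and open the one of differentiated sensory neurons. *Prdm12*, *Tlx3* and *Drgx* then act in narrower sets of neurons. Prdm12 is a chromatin regulator needed for the nociceptor lineage, and Tlx3 and Drgx are homeodomain proteins of nociceptive neurons and of the spinal neurons they contact. The RNA levels of these general and narrower factors were compared here after early loss of *Dach1*, a corepressor gene.

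Bulk RNA-sequencing compared 5 control with 5 *WD1* cKO samples of DRG. *WD1* cKO embryos were Wnt1Cre/+; Dach1 flox/flox, and controls were littermates. The study does not give the control genotype for this experiment. Dach1 flox/flox without Cre is inferred from the genotype field of the labels, read with the groups exchanged. On that reading, only the *WD1* cKO group carried Cre. The floxed allele removes exon 2. Wnt1 Cre acts in the neural crest, and therefore in the neurons and in the glia of the ganglia. The floxed line was of mixed C57Bl/6J and CD1 background, and *WD1* cKO mice die soon after birth. The labels call each library a replicate without naming the embryo or litter, so p-values measure the spread between these libraries. The groups follow the sample titles. The genotype field of the labels names them the other way round. The level of *Dach1* went with the titles. It was 35.1, 38.5, 41.6, 37.1 and 37.4 CPM (read counts scaled to a common library size) in control replicates 1 to 5 and 19.1, 20.7, 19.5, 20.3 and 20.4 CPM in *WD1* cKO replicates 1 to 5. The count takes in reads from all exons, and RNA without exon 2 can still contribute to it.

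Control libraries held 20465132 to 27528784 counts and *WD1* cKO libraries 19757596 to 34796562. The summed level of 9 pan-neuronal genes was 7585 to 8408 CPM in control and 7719 to 8309 CPM in *WD1* cKO libraries. The 7 glial markers summed to 842 to 983 and 834 to 1033 CPM, so the markers of both labelled cell types, neurons and glia, were present in every library. Control replicates 3 and 5 stood apart in markers of other tissue. The spinal cord list summed to 17.2 CPM in control replicate 3, against 0.184 to 0.485 CPM in the other control and 0.168 to 1.49 CPM in the *WD1* cKO libraries. *Mnx1*, the motor neuron gene of that list, was at 0 in control replicate 3. Visceral and autonomic genes summed to 73.9 CPM in control replicate 5, against 0.405 to 5.37 CPM and 0.457 to 11.8 CPM. Values without these libraries are given below where they move a result. In bulk tissue, fewer cells of a type and less RNA per cell cannot be told apart.

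The sequence ahead of the annotated start was taken from RefSeq on GRCm38.p6 for 7 of the 8 genes. These windows are background to the expression values, which say nothing about binding there. The 250 upstream bases were searched on both strands for CCAAT, for TAAT, the core letters of many homeodomain sites, and for CANNTG, the E-box letters bound by neurogenic bHLH factors. Over 32851 promoters of the same length, CCAAT was found in 33.8%, TAAT in 54.9% and CANNTG in 66.2%. The windows of *Isl1*, *Isl2* and *Tlx3* each held CCAAT 2 times, and those of *Pou4f1*, *Pou4f2*, *Prdm12* and *Drgx* held none. In the *Drgx* window, 116 bases lie in an exon of another annotated transcript, and that window is not shown. TAAT was found 5 times in *Tlx3* and 2 times in *Isl1* and not in the other windows, and CANNTG 2 times in *Pou4f1* and 1 time in *Isl1*. The 4 windows that hold a match are shown 5′ to 3′ in the direction of the gene, with CCAAT in capitals in the first 3 and CANNTG in capitals in *Pou4f1*.
*Isl1* chr13:116309689-116309938 (-): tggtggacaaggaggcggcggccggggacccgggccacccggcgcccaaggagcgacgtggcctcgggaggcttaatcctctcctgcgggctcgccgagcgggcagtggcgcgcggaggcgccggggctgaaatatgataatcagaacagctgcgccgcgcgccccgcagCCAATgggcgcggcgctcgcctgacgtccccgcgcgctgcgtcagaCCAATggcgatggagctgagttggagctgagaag
*Isl2* chr9:55540899-55541148 (+): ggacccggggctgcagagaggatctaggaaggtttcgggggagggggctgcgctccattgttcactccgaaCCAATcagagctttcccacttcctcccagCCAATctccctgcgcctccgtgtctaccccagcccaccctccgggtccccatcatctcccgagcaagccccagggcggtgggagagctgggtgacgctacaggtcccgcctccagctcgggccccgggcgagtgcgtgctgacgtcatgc
*Tlx3* chr11:33203589-33203838 (-): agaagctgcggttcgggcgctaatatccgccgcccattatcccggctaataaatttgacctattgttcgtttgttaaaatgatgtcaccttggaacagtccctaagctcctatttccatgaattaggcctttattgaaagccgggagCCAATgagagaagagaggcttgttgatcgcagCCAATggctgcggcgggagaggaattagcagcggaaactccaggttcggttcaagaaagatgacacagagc
*Pou4f1* chr14:104468000-104468249 (-): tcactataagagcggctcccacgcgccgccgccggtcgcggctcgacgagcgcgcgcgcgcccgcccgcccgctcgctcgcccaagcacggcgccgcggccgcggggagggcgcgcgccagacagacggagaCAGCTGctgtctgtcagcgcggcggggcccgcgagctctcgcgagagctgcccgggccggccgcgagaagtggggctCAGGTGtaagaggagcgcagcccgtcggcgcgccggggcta
The Islet paralogs and *Tlx3* thus held 2 CCAAT matches each, and *Pou4f1* held none in this window. Any role of these matches was not tested.

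Levels can be compared between genes only per length. Per kilobase of exon in control DRG, *Isl2*, *Isl1* and *Prdm12* were highest at 83.1 ± 2.88, 74.6 ± 11.1 and 70.7 ± 4.74 CPM per kb (SD, n = 5), and their ranges overlapped. *Drgx* followed at 42.6 ± 1.64 and *Pou4f1* at 34.5 ± 2.53 CPM per kb. *Pou4f3*, *Tlx3* and *Pou4f2* were lowest at 25.0 ± 2.88, 20.8 ± 3.25 and 16.7 ± 1.85 CPM per kb, and each overlapped the next. All 8 lay above 82.5% of the 17447 tested genes with a known length, and *Isl2* lay above 98.0% of them. With the longest transcript as length, *Isl1* came first at 117 ± 17.5 and *Isl2* second at 98.3 ± 3.41 CPM per kb, so the order of the Islet pair depends on the transcript counted.

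**Figure D1:**
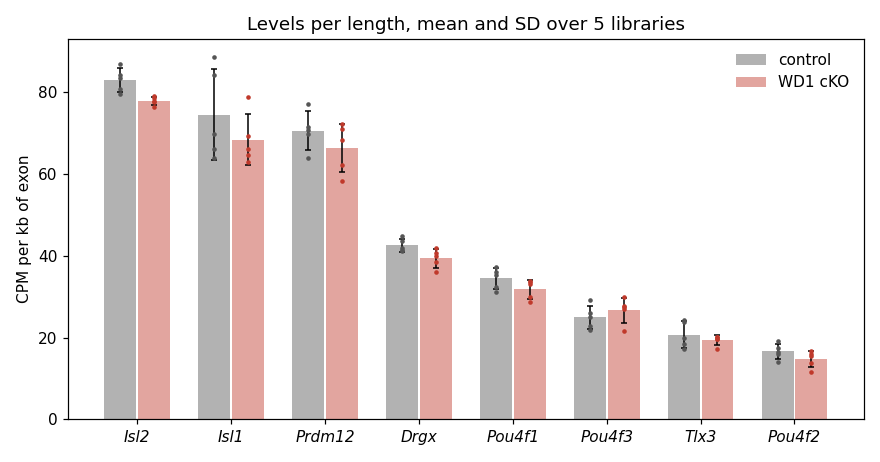
Levels of the 8 transcription factors in CPM per kilobase of exon, in order of the control mean, with bars for the mean of 5 libraries, error bars for the SD and points for single libraries (grey control, red *WD1* cKO). The highest 3, *Isl2*, *Isl1* and *Prdm12*, had control means of 70.7 to 83.1 CPM per kb and the lowest, *Pou4f2*, 16.7 CPM per kb.

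The Brn3 factors are POU-homeodomain proteins of sensory neurons, and *Pou4f1*, which encodes Brn3a, is the one found in nearly all DRG neurons. Its level was 169, 165, 174, 152 and 146 CPM in control replicates 1 to 5 and 158, 158, 155, 134 and 140 CPM in *WD1* cKO replicates 1 to 5. Each *WD1* cKO library lay below the control median of 165 CPM, but the groups overlapped. *Pou4f2*, Brn3b, was at 53.0, 56.1, 61.4, 51.2 and 45.4 CPM in control and 54.0, 49.4, 51.2, 44.6 and 37.5 CPM in *WD1* cKO libraries. Its highest value was in control replicate 3 and its lowest in *WD1* cKO replicate 5, with the rest interleaved. *Pou4f3*, Brn3c, best known from hair cells of the ear, was at 60.1, 69.9, 54.6, 62.4 and 52.4 CPM in control and 65.0, 66.3, 65.7, 51.8 and 71.6 CPM in *WD1* cKO libraries. It was the one member with a higher mean in *WD1* cKO DRG, and there it held both the highest and the lowest value of the 10 libraries.

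The log2 fold change of *WD1* cKO against control was -0.11 for *Pou4f1* (standard error 0.059, 95% interval -0.24 to 0.016, p = 0.0809 in edgeR's quasi-likelihood test and 0.127 in the exact two-sided permutation test). For *Pou4f2* it was -0.17 (standard error 0.099, 95% interval -0.39 to 0.040, p = 0.103 and exact permutation p = 0.175), the largest difference of the 8 genes. For *Pou4f3* it was 0.10 (standard error 0.090, 95% interval -0.095 to 0.29, p = 0.286 and exact permutation p = 0.381). None of the 3 passed an unadjusted p of 0.05 in this fit, which holds no term for the replicate numbers. With such a term, described further on, *Pou4f1* and *Pou4f2* did. Without control replicate 3, the library with spinal cord genes and the highest *Pou4f1* and *Pou4f2*, the log2 fold changes were -0.084 and -0.12, and without *WD1* cKO replicate 5 that of *Pou4f2* was -0.10. The higher *Pou4f3* rested on few libraries, with a log2 fold change of 0.056 without control replicate 5, 0.054 without *WD1* cKO replicate 5, 0.17 without *WD1* cKO replicate 4, 0.16 without control replicate 2 and 0.0015 without control replicates 3 and 5 together, a choice made after seeing the data.

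Within the family, *Pou4f1* made up 45.3% ± 1.83 of the summed Brn3 level per kb in control and 43.5% ± 1.01 in *WD1* cKO DRG (SD, n = 5). *Pou4f3* made up 32.8% ± 2.69 and 36.4% ± 3.10, and *Pou4f2* 21.9% ± 1.31 and 20.1% ± 2.22. The log2 ratio of *Pou4f2* to *Pou4f1* counts within a library, which no library scaling can move, was -1.60 ± 0.078 in control and -1.66 ± 0.14 in *WD1* cKO DRG (exact permutation test, p = 0.460). The balance of the pair did not differ beyond its spread.

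The Islet factors are LIM-homeodomain proteins, which work through the adaptor Ldb. *Isl1*, the usual marker of differentiated DRG neurons, was at 333, 351, 277, 253 and 262 CPM in control and 312, 262, 274, 250 and 256 CPM in *WD1* cKO libraries. It had the widest control range of the 5 most abundant members, with replicates 1 and 2 far above the other controls. *Isl2* was at 191, 183, 185, 177 and 175 CPM in control and 172, 174, 170, 171 and 168 CPM in *WD1* cKO libraries. Here all 5 *WD1* cKO values lay below all 5 control values, and the libraries of a group differed little, with a coefficient of variation of 3.47% in control and 1.30% in *WD1* cKO DRG.

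For *Isl2* the log2 fold change was -0.091 (standard error 0.031, 95% interval -0.16 to -0.025), with p = 0.0113 in edgeR's quasi-likelihood test and p = 0.00794 in the exact permutation test, the smallest that 5 against 5 libraries can give. It ranked 170 of 17490 genes by p and did not pass the adjustment over them (Benjamini-Hochberg adjusted p = 1.00). It was the 1 member whose groups did not overlap, against 1.06% of all genes tested. For *Isl1* the log2 fold change was -0.12 (standard error 0.094, 95% interval -0.33 to 0.080, p = 0.209 and exact permutation p = 0.278). Without control replicates 3 and 5 together, the values were -0.10 for *Isl2*, still with an unadjusted p under 0.05, and -0.21 for *Isl1*. The *Isl1* value was -0.054 without control replicate 2 and -0.077 without control replicate 1, the libraries with its highest levels. The log2 ratio of *Isl1* to *Isl2* counts was 0.68 ± 0.18 in control and 0.66 ± 0.12 in *WD1* cKO DRG (exact permutation test, p = 0.833), so no difference between the paralogs was seen beyond the spread.

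*Prdm12*, whose loss in humans causes congenital insensitivity to pain, was at 177, 175, 191, 173 and 158 CPM in control and 176, 178, 169, 154 and 144 CPM in *WD1* cKO libraries. Replicates 1 and 2 of the groups were alike, and *WD1* cKO replicates 4 and 5 were the lowest of all. *Tlx3* was at 37.4, 30.4, 36.7, 28.2 and 26.4 CPM in control and 30.8, 30.9, 30.2, 26.5 and 30.3 CPM in *WD1* cKO libraries. No *WD1* cKO value lay below the control range, and the control values spread more widely. *Drgx*, a paired-type homeodomain gene needed for the wiring of nociceptive afferents, was at 182, 173, 188, 175 and 172 CPM in control and 169, 175, 167, 161 and 150 CPM in *WD1* cKO libraries. Of the 5 *WD1* cKO libraries, 4 lay below all controls and replicate 2 lay among them.

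The log2 fold change of *Drgx* was -0.11 (standard error 0.044, 95% interval -0.21 to -0.017), with p = 0.0248 in edgeR's quasi-likelihood test and 0.0397 in the exact permutation test. Its adjusted p over all genes was 1.00. The log2 fold change was -0.10 without control replicates 3 and 5 and -0.091 without control replicate 3 alone, where *Drgx* was highest. In both fits its unadjusted p was no longer under 0.05. This also held without control replicate 1, *WD1* cKO replicate 4 or *WD1* cKO replicate 5, at log2 fold changes of -0.10, -0.10 and -0.083. With any other single library left out, its unadjusted p stayed under 0.05. The log2 fold changes of *Prdm12* and *Tlx3* were -0.089 (standard error 0.064, 95% interval -0.23 to 0.049, p = 0.187) and -0.094 (standard error 0.093, 95% interval -0.30 to 0.11, p = 0.334), with exact permutation p = 0.246 and 0.452. Without control replicate 3 they were -0.055 and -0.037. Over all single libraries left out, *Prdm12* ranged from -0.12 to -0.048, the latter without *WD1* cKO replicate 5, and *Tlx3* from -0.15 to -0.030. The 3 nociceptor lineage factors had log2 fold changes of -0.11 to -0.089, and the pan-sensory *Pou4f1*, *Isl1* and *Isl2* had -0.12 to -0.091.

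**Figure D2:**
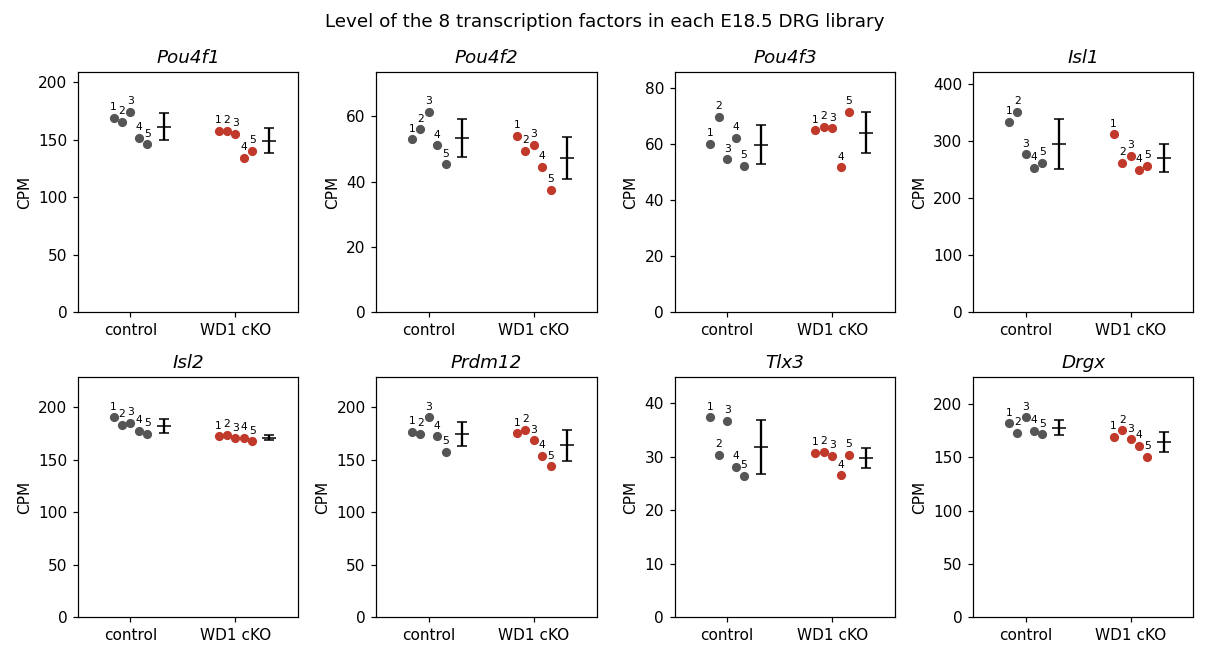
Level in CPM of each transcription factor in each library (numbers are the replicate numbers of the titles), with the mean and SD of 5 libraries beside the points. Groups overlapped in 7 of the 8 panels, and in the panel of *Isl2* all *WD1* cKO values (168 to 174 CPM) lay below all control values (175 to 191 CPM).

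Over the 8 genes, the median log2 fold change was -0.10 and the sizes lay between 0.089 and 0.17, against a median of 0.00 and a median size of 0.053 over all genes tested. A fold change below 0 was seen in 7 of 8 members and in 49.9% of all genes. With edgeR's quasi-likelihood test, 0 of 8 had an adjusted p under 0.05, against 0.0400% of all genes, and with DESeq2 also 0 of 8, against 0.109%. At an unadjusted p under 0.05 there were 2 of 8, *Isl2* and *Drgx*, against 4.50% of all genes, and both were lower, against 2.38%. None passed the cut-off of the study, p under 0.005 with a log2 change above 0.15 in size, which 0.383% of all genes passed. The members were measured in the same libraries, so their signs are not 8 separate observations. The 95% intervals of the 8 genes in the main fit stayed between -0.39 and 0.29. Each holds for 1 gene taken alone in that fit, and together they are not a joint bound. Estimates moved with the libraries used, as for *Pou4f2*, at -0.23 (standard error 0.096) without control replicate 5.

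**Figure D3:**
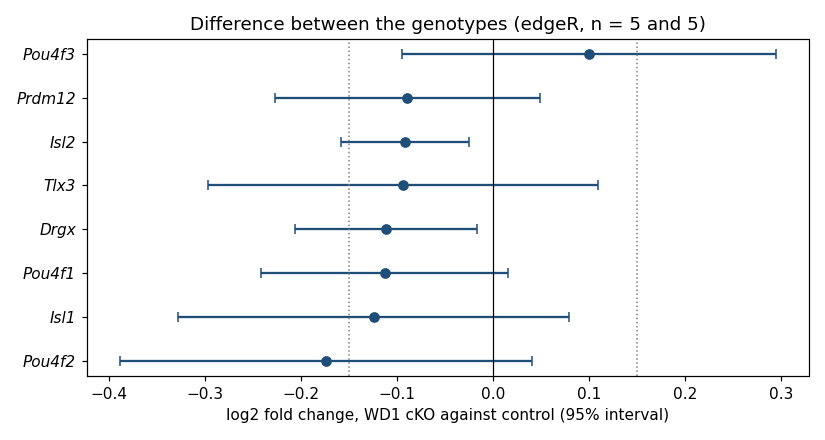
Log2 fold change of *WD1* cKO against control for each transcription factor from edgeR, with 95% intervals, a line at 0 and dotted lines at the size used in the cut-off of the study (0.15). The points lay at -0.17 to -0.089 for 7 genes and at 0.10 for *Pou4f3*, and the intervals of *Isl2* and *Drgx* alone excluded 0.

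Levels followed the replicate numbers of the titles in both groups. The mean of replicates 4 and 5 was below that of replicates 1 to 3 for 8 of 8 members in control and 8 of 8 in *WD1* cKO DRG. Replicates 4 and 5 both lay below all of replicates 1 to 3 for 6 members in control and 5 in *WD1* cKO DRG. The share of all tested genes with the same order was not counted, so the shift is not shown to be particular to these genes. For *Pou4f1* the means were 169 and 149 CPM in control and 157 and 137 CPM in *WD1* cKO DRG, so this gap was wider than the one between the genotypes. Blood genes moved the same way, with sums of 1071 to 2464 CPM in control replicates 1 to 3 against 155 to 183 CPM in replicates 4 and 5, and of 509 to 1134 against 189 to 243 CPM in *WD1* cKO libraries. Their part in the levels of the members was not tested, and the labels name no batch.

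Within replicates 1 to 3, the mean log2 difference between the genotypes was -0.11 for *Pou4f1*, -0.14 for *Pou4f2*, -0.18 for *Isl1*, -0.11 for *Isl2*, -0.053 for *Prdm12* and -0.084 for *Drgx*. Within replicates 4 and 5, the differences in the same order were -0.12, -0.24, -0.027, -0.056, -0.15 and -0.16. *Pou4f3* was higher in both sets, by 0.10 and 0.091. *Tlx3* was the exception, lower by -0.18 in replicates 1 to 3 and higher by 0.056 in replicates 4 and 5.

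With a term for the 2 sets of replicate numbers in the edgeR fit, 5 of 8 members had an unadjusted p under 0.05 in place of 2, against 7.33% of all genes in that fit. They were *Pou4f1*, *Pou4f2*, *Isl2*, *Prdm12* and *Drgx*, all lower in *WD1* cKO DRG. None passed the adjustment over all genes, with the lowest adjusted p at 0.327, for *Pou4f1*, from edgeR. With the pan-neuronal genes as the scale instead, no member had a p under 0.05, against 3.12% of all genes, while the fold changes of the members kept their signs.

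Across the 10 libraries, 24 of the 28 pairs of members were positively correlated in log2 CPM, with a median Pearson's r of 0.64. The highest were *Pou4f2* with *Prdm12* (r = 0.95, permutation p = 2e-04, adjusted 0.00558, and Spearman's rho = 0.76, p = 0.0139, adjusted 0.04997) and *Prdm12* with *Drgx* (r = 0.91, permutation p = 0.00031, adjusted 0.00558, and rho = 0.88, p = 0.0015, adjusted 0.0180). Without the 2 libraries farthest from the median of the first gene, r was 0.85 and 0.71. With Benjamini-Hochberg adjustment over the 36 relations computed, 9 pairs passed by r and 7 of them also by rho. *Pou4f3* stood apart, with r between -0.31 and 0.32 to the other members.

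The median correlation was smaller once the replicate numbers were taken into account. Deviations were taken from a fit with genotype and number set as separate, additive terms, a view added after seeing the data. A genotype difference that varied between the sets therefore stayed in them. The median r of the 28 pairs was then 0.013, with a range from -0.72 to 0.85. *Prdm12* with *Drgx* kept r = 0.85 and *Pou4f2* with *Prdm12* r = 0.80, while *Pou4f1* with *Pou4f2* went from 0.86 to 0.12 and *Pou4f1* with *Isl1* from 0.67 to -0.46. *Pou4f1* with *Tlx3* went from 0.82 to 0.64, *Isl2* with *Tlx3* from 0.69 to 0.62 and *Pou4f2* with *Drgx* from 0.86 to 0.57. Negative values of similar size arose too. *Isl1* with *Drgx* went from 0.39 to -0.72, *Isl1* with *Prdm12* from 0.46 to -0.65 and *Pou4f3* with *Drgx* from -0.31 to -0.65. None of the 8 members was correlated with the pan-neuronal sum after adjustment. The r was 0.24 for *Pou4f3* and -0.60 to -0.21 for the others. On deviations from the genotype means, it was 0.26 for *Pou4f3*, -0.24 for *Isl1* and -0.66 to -0.60 for the others. On deviations from the fit with genotype and number set, it ran from -0.28 to 0.69. The deviations were not tested.

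**Figure D4:**
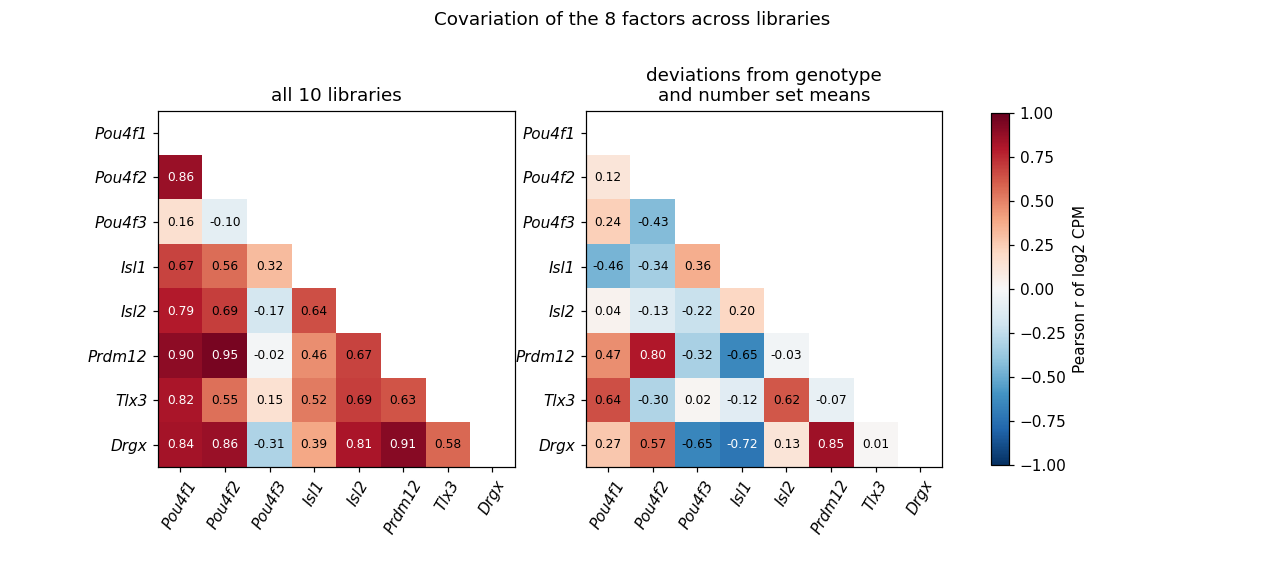
Pearson's r of log2 CPM between pairs of the 8 transcription factors, with red positive and blue negative. The left panel takes all 10 libraries. The right panel takes deviations from a fit with genotype and set of replicate numbers as separate, additive terms. The median of the 28 pairs was 0.64 on the left and 0.013 on the right. On the right, r ran from -0.72 (*Isl1* with *Drgx*) to 0.85 (*Prdm12* with *Drgx*).

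The genes whose pattern over the 10 libraries was most like that of a member were taken from 10774 genes with a mean of at least 10 CPM, as a description without a test. *Pou4f1* was most like *Rnf10*, *Ksr1* and *Acbd6* (r = 0.97, 0.97 and 0.96), *Pou4f2* most like *Carm1* and *Sec16a* (r = 0.98 and 0.98), and *Prdm12* most like *Cntfr*, a receptor subunit for ciliary neurotrophic factor (r = 0.98). *Drgx* was most like *Cacna2d2*, a calcium channel subunit (r = 0.96), *Isl1* like *Heatr1* (r = 0.96), *Tlx3* like *Ppdpf* (r = 0.94), *Isl2* like the histone methyltransferase gene *Kmt2b* (r = 0.94) and *Pou4f3* like *Shf* (r = 0.97). These points share library and depth, and each gene is the highest of 10774 values over 10 points.

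Genes that act before, with or after these factors were counted in the same edgeR fit. Over all genes of that fit, 49.9% were lower in *WD1* cKO DRG and 4.50% had an unadjusted p under 0.05. These shares stand beside the counts of each list below, and no list was tested as a set. Of 9 cofactor genes, which include the Ldb adaptors and the Ssbp proteins that bind them, 8 were lower and 1 higher, with 1 at an unadjusted p under 0.05. This was *Ssbp3*, at 172 ± 10.9 CPM in control and 153 ± 9.77 CPM in *WD1* cKO DRG (SD, n = 5; log2 fold change -0.17, exact permutation p = 0.00794, adjusted p = 1.00 from edgeR). *Ldb2* was at 200 ± 2.88 and 194 ± 8.11 CPM (exact permutation p = 0.151).

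Of the 11 nociceptor lineage genes reported here, 8 were lower and 3 higher, against 49.9% of all genes lower. *Ret*, a receptor gene of non-peptidergic nociceptors and some touch neurons, was at 747 ± 77.0 CPM in control and 791 ± 37.1 CPM in *WD1* cKO DRG (SD, n = 5; log2 fold change 0.083, exact permutation p = 0.246). The neuropeptide gene *Tac1* was at 87.7 ± 15.8 and 100.1 ± 13.1 CPM (log2 fold change 0.19, exact permutation p = 0.198). *Prph* and the sodium channel gene *Scn10a* had log2 fold changes of -0.013 and -0.013 (exact permutation p = 0.770 and 0.913). None of these 4 genes had an exact permutation p under 0.05.

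Of 7 genes of neurogenesis, 4 passed the filter, 1 lower and 3 higher, with none at p under 0.05. The proneural gene *Neurod1* was at 3.29 ± 0.322 and 3.15 ± 0.324 CPM, and *Insm1* at 7.30 ± 1.59 and 7.90 ± 0.572 CPM. Of 11 relatives of the members, 6 passed the filter, 4 lower and 2 higher. *Tlx2*, the paralog of *Tlx3*, was at 27.9 ± 4.60 and 27.1 ± 2.02 CPM and *Prdm8* at 47.2 ± 3.77 and 43.6 ± 3.88 CPM. *Lmx1b*, a LIM-homeodomain gene of the dorsal spinal cord, was at 7.96 CPM in control replicate 3 and between 0.337 and 0.664 CPM in the other 9 libraries, so its control mean rested on the library with spinal cord genes. None of the 6 had p under 0.05.

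Of the other cell lists, 6 of 9 pan-neuronal genes were lower and 3 higher, and 2 of 7 glial genes lower and 5 higher. Lower too were 4 of 4 tested autonomic, 4 of 5 blood and 5 of 5 muscle genes, against 49.9% of all genes. The autonomic sum was 73.9 CPM in control replicate 5. Its group medians went the other way, at 1.90 CPM in control and 8.09 CPM in *WD1* cKO libraries. All 5 connective tissue genes were higher, and *Lum*, at 33.1 ± 4.93 and 38.4 ± 1.57 CPM, was the 1 gene of these lists with p under 0.05 (exact permutation p = 0.0476, adjusted p = 1.00 from edgeR). The 7 spinal cord genes did not pass the filter. The part of these tissues in the levels of the members was not tested.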

How the data were processed

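DRG were dissected from E18.5 embryos and stranded mRNA libraries were prepared. Per the labels and the methods of the study, the authors aligned reads to GRCm39 with STAR 2.7.8a, assigned them to genes with featureCounts 2.0.1 and deposited the raw counts. The strand setting and the treatment of multi-mapping reads are not given in the sources used here. Libraries of a group were distinct (chi-square over its degrees of freedom 4.33 to 15.7 for pairs), and each was 1 replicate.

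The analysis used edgeR 4.0.16 in R 4.3.3 (TMM, quasi-likelihood test, Benjamini-Hochberg adjustment over the 17490 genes that reached 10 counts in 5 or more libraries), with DESeq2 1.42.0 as an alternative. The code was tested on simulated data. CPM use the TMM-scaled library sizes. Permutation tests were two-sided, on log2 CPM (prior count 1). Correlations used 100000 permutations. Symbols and exon lengths came from GENCODE and RefSeq annotation of GRCm38, which also served to find exons inside the promoter windows. Promoter windows are those of RefSeq on that build. The window of *Pou4f3* was left out of the search and is not shown.

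The 8 genes and the other lists were chosen with earlier results of these data known. Named genes were the 8, *Dach1*, those of each list with the 2 lowest p-values or 2 highest levels, and the 3 most like each member. Alternatives were other scaling, filters, tests, dispersions, a replicate block, a number term, *Xist* as a covariate and each library left out. Sequencing data of other experiments of the study were not analysed here. One gene of the nociceptor lineage list is not reported here, and the counts of that list leave it out.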

Additional observations from a re-analysis of the deposited data

Results flagged for a closer look

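*Tlx3* in *WD1* cKO replicate 4, at 26.5 CPM, lay apart from the other 4 libraries of its group, which were at 30.2 to 30.9 CPM, by Dixon's criterion. It was the only such library among the 16 groups compared (8 genes in 2 genotypes), where chance gives about 0.8. The same value lay inside the control range of 26.4 to 37.4 CPM.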

How the results depend on the processing

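Each of the 8 log2 fold changes kept its sign and none passed an adjusted p of 0.05 in the 20 alternatives run. The lowest adjusted p was 0.327, for *Pou4f1*. The number of genes called over all genes, 7 by edgeR, was 19 by DESeq2, 4 among genes averaging 100 counts or more, 11 with a term for replicate numbers, 4 with *Xist* as a covariate, 4 without control replicates 3 and 5 together, and 3 to 6 with single libraries left out. Genes past the cut-off of the study, 67, were 128 with no filter on low counts and 117 with the number term. Members with an unadjusted p under 0.05, 2, were 5 with the number term, 1 with *Xist*, 0 with pan-neuronal scaling, 1 without control replicates 3 and 5, and 1 to 4 with single libraries left out. The 4 was without control replicate 5, and the 1 was without control replicate 1 or 3 or *WD1* cKO replicate 4 or 5. Of all genes, 4.50% had such a p in the main fit and 7.33% with the number term. The share was 3.59% with *Xist*, 3.12% with pan-neuronal scaling and 4.90% without control replicates 3 and 5. With single libraries left out it was 3.70% to 5.55%, highest without control replicate 5. The cause of these shifts was not tested.

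Libraries of the same number deviated together with r from 0.040 to 0.39 over the 5 pairs, and 3 of 5 control libraries were closest to their own number. These values do not decide whether equal numbers are pairs, and the labels name no litter. The main fit did not take them as pairs. With the replicate block, 133 genes passed the cut-off of the study, 1 member did (*Pou4f2*, log2 fold change -0.18) and 5 members had p under 0.05, against 7.10% of all genes in that fit.

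The difference in the log2 ratio of *Isl1* to *Isl2*, -0.026, turned to 0.0051, 0.037 and 0.0023 without control replicate 1, control replicate 2 and *WD1* cKO replicate 4, all within its spread, and lay between -0.075 and 0.037 with any single library left out. Each member had at least 522 counts in each library, and the share of counting error in the spread between libraries was not tested.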
